A study of Homo sapiens with 12 samples.

Results

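S100A7, S100A8 and S100A9 are small calcium-binding proteins of the S100 family that keratinocytes and myeloid cells release as alarm signals. Their transcripts were followed on 12 arrays of 2 human lines of cutaneous squamous cell carcinoma. The groups were HSC-1 cells with 100 nM everolimus, HSC-1 cells with the vehicle DMSO, A431 cells with 100 nM everolimus and A431 cells with DMSO, each sampled at 72 h on 3 arrays. Everolimus is an analogue of rapamycin and an inhibitor of mTOR complex 1. Each line is a single culture model grown in serum, and the labels leave unsaid whether a group's arrays hold independent cultures, so p-values measure array-to-array spread that could be purely technical. The genes were taken by their annotation, with the probe set of highest mean where a gene had several. Each of the 3 had 1 named probe set (16693427 for S100A7, 16693414 for S100A8 and 16671139 for S100A9), so that choice had no effect. They are 3 of 14884 genes with a named probe set, and all 3 were among the 10613 genes that passed the filter on low values.

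S100A8 and S100A9 pair into calprotectin, which binds calcium and withholds zinc and manganese from microbes, and which signals to neighbouring cells through Toll-like receptor 4 and the receptor AGER. S100A7, or psoriasin, is an antimicrobial protein that binds zinc and was named for its abundance in psoriatic epidermis. In healthy skin the 3 genes are weakly expressed, and they are induced in wounded, inflamed or malignant squamous epithelium by cytokines such as interleukin-17, interleukin-22, interleukin-1 and tumour necrosis factor.

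The 3 genes lie together in the epidermal differentiation complex of chromosome 1. In the order of protein-coding genes in assembly GRCh38.p14, S100A9 is followed by S100A12, S100A8, S100A7A and S100A7, so 5 genes span the stretch and 2 of them are other S100 genes. The promoter windows below, from RefSeq on build GRCh38.p14, are shown because these neighbours had lower transcript levels with everolimus in both lines. Each runs from 250 bases before the annotated start to 50 after it, in the direction of the gene, and capitals mark matches to TATAAA and to TTNNGNAA, a core of the C/EBP site. The windows are chr1:153460602-153460901 on the minus strand for S100A7, chr1:153391024-153391323 on the minus strand for S100A8 and chr1:153357604-153357903 on the plus strand for S100A9.
S100A7: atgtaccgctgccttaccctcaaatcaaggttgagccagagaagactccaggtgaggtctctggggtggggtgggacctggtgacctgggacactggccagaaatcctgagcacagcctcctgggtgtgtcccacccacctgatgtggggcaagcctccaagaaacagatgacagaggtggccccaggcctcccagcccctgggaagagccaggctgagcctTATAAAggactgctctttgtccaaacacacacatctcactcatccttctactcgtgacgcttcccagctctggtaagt
S100A8: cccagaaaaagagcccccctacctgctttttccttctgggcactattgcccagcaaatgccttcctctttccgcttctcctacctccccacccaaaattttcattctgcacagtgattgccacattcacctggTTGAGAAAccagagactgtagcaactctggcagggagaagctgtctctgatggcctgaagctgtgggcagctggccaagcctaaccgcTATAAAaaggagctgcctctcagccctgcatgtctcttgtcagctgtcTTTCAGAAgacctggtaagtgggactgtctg
S100A9: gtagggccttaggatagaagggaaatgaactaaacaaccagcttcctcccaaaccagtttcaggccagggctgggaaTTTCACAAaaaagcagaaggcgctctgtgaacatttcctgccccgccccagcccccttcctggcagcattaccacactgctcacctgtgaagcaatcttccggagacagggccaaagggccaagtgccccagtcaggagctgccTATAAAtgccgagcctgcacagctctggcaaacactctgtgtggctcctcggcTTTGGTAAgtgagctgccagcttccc
TATAAA begins 28 bases before the start in S100A7 and 29 bases before it in S100A8 and S100A9. Over all 35116 promoter windows of this length, 2.30% have TATAAA beginning 20 to 40 bases before the start on the gene's strand. S100A8 has 3 windows in the table, and the one printed was taken because it is the one with TATAAA in that place. On either strand TATAAA was found in 11.5% of all windows. TTNNGNAA was found at 2 places in the S100A8 window and at 2 in the S100A9 window, against 36.8% of all windows with at least 1, and not in the S100A7 window. In both genes 1 match begins before the start, by 117 bases in S100A8 and 173 in S100A9. The other match of each gene lies after the start. TGANTCA, the AP-1 motif, and TTCNNNGAA, the STAT motif, were searched on both strands and are not in any of the windows printed above. They occur in 7.71% and 7.66% of all windows. A match is a run of letters and was not tested as a binding site.

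The adjacent paralogue S100A7A has a promoter window much like that of S100A7. Its window, chr1:153416270-153416569 on the plus strand, is shown with capitals at the bases that differ from S100A7.
S100A7A: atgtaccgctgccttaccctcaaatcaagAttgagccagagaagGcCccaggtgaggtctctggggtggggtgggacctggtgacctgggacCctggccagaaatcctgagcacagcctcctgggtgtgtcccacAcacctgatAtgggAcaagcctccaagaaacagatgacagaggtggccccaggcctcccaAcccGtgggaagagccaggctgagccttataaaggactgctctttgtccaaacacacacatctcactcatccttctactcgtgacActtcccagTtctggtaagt
The 2 windows are identical at 289 of 300 bases without gaps (96.3%), whereas S100A8 and S100A9 are identical at 75 of 300 (25.0%). Most of each window lies before the start, so this identity does not show whether S100A7A transcripts share signal with the S100A7 probe set. That was not tested. The S100A7A probe set itself (16671144) averaged 3.79 ± 0.31 with everolimus and 4.17 ± 0.11 with DMSO in HSC-1, and 3.27 ± 0.33 with everolimus and 3.53 ± 0.18 with DMSO in A431 (log2 level, SD, n = 3 each). It lay below the array median on all 12 arrays and was not tested.

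Levels are log2 values after RMA, the normalization used by the authors, so a difference of 1 is a doubling. The median of each array over all probe sets serves as a mark of low signal, since the table holds no detection flags. Pearson correlations ran from 0.989 to 0.992 within groups and from 0.955 to 0.962 between the lines. Between the treatments of one line they ran from 0.987 to 0.991, which overlaps the range within groups. The 7 keratinocyte markers with a named probe set (KRT5, KRT14, DSG3, DSP, PKP1, SFN and EGFR) were above the array median on all 12 arrays.

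The 3 genes were chosen by earlier results on these same arrays, in which their lower values with everolimus stood out. Their everolimus differences, and the comparison of those differences between the lines, are therefore given as a description, without a test.

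S100A7 had the widest range of the 3 probe sets. In HSC-1 it measured 6.40, 6.58 and 6.05 with everolimus, against 7.74, 7.78 and 7.63 with DMSO. The HSC-1 groups did not overlap, and the lowest DMSO array was above the highest everolimus array by more than the whole spread within either group. The mean was 6.34 ± 0.27 with everolimus and 7.71 ± 0.08 with DMSO (SD, n = 3 each), a log2 difference of -1.37 ± 0.14 with its SE, which is 2.59-fold lower. In A431 it measured 3.72, 3.72 and 4.24 with everolimus, against 5.18, 5.17 and 5.20 with DMSO. The A431 groups did not overlap either, and the everolimus array of replicate 3 stood above the other two. The mean was 3.89 ± 0.30 with everolimus and 5.19 ± 0.02 with DMSO (SD, n = 3 each), a log2 difference of -1.29 ± 0.14 with its SE, which is 2.45-fold lower. All 3 A431 arrays with everolimus lay below their array median, by 0.63, 0.63 and 0.12, so the size of that difference depends on the background.

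S100A8, the smaller subunit of calprotectin, had the largest difference of the 3 in HSC-1. It measured 6.81, 6.62 and 6.76 with everolimus, against 8.74, 8.67 and 8.69 with DMSO. The groups were far apart, and the arrays within each lay close together. The mean was 6.73 ± 0.10 with everolimus and 8.70 ± 0.04 with DMSO (SD, n = 3 each), a log2 difference of -1.97 ± 0.08 with its SE, which is 3.91-fold lower. In A431 it measured 5.41, 5.17 and 5.48 with everolimus, against 6.27, 6.30 and 6.18 with DMSO. These groups did not overlap, and all 6 arrays stayed above their array median. The A431 mean was 5.35 ± 0.16 with everolimus and 6.25 ± 0.06 with DMSO (SD, n = 3 each), a log2 difference of -0.89 ± 0.08 with its SE, which is 1.86-fold lower.

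S100A9, the partner of S100A8 in calprotectin, measured 6.65, 6.79 and 6.81 with everolimus in HSC-1, against 8.40, 8.32 and 8.36 with DMSO. The HSC-1 groups did not overlap. The mean was 6.75 ± 0.09 with everolimus and 8.36 ± 0.04 with DMSO (SD, n = 3 each), a log2 difference of -1.61 ± 0.08 with its SE, which is 3.06-fold lower. In A431 it measured 6.90, 6.76 and 6.55 with everolimus, against 7.39, 7.42 and 7.52 with DMSO. The A431 groups did not overlap, with the everolimus array of replicate 3 the lowest of the 6. The mean was 6.74 ± 0.18 with everolimus and 7.44 ± 0.07 with DMSO (SD, n = 3 each), a log2 difference of -0.71 ± 0.08 with its SE, which is 1.63-fold lower.

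**Figure D1:**
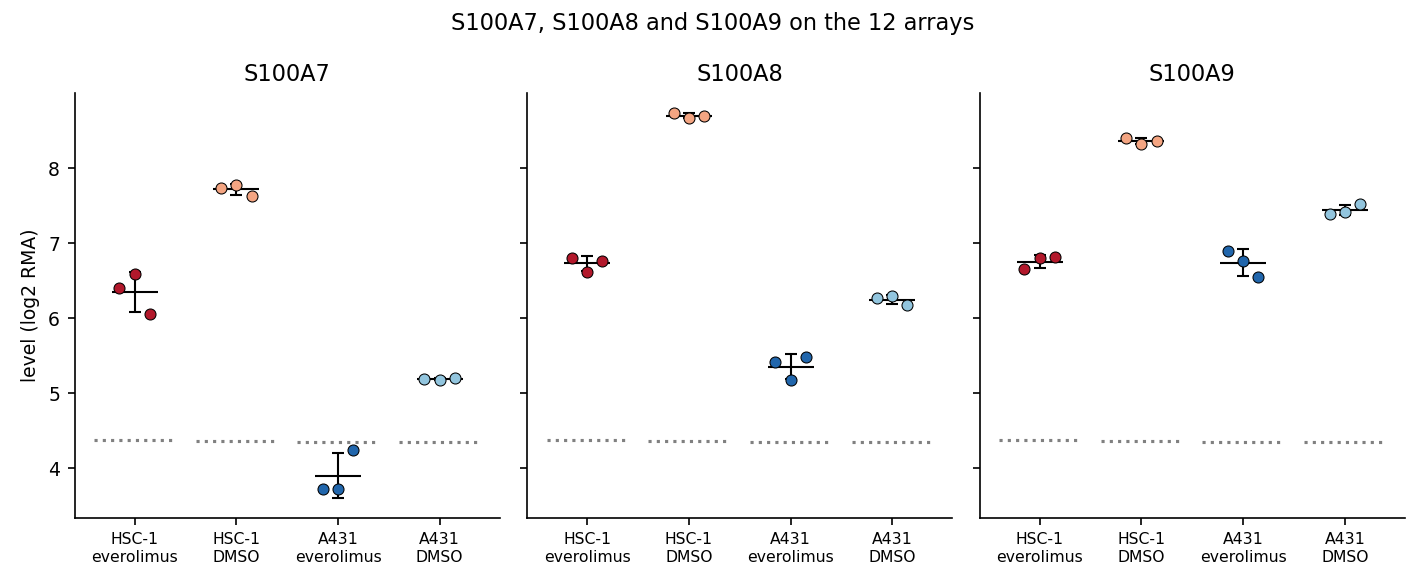
Log2 RMA level of S100A7, S100A8 and S100A9 on each of the 12 arrays, by group; points are arrays, horizontal bars and error bars are the mean and SD of 3 arrays, and dotted lines are the mean of the array medians. In both lines every everolimus array lies below every DMSO array, and S100A7 drops under the dotted line in A431 with everolimus.

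All 3 genes thus had everolimus arrays wholly below the DMSO arrays in both lines. Among the 10613 tested genes, 19.6% did so in HSC-1 and 13.5% in A431, and since these contrasts led to the choice of the genes, nothing is read from the count. Fewer cells with high expression and less RNA per cell cannot be told apart in such bulk samples. Replicate 3 with everolimus did not move the 3 genes the same way. In A431 it was the highest of its group for S100A7 and S100A8 and the lowest for S100A9, and in HSC-1 it was the lowest for S100A7 and the highest for S100A9. Without it the S100A7 difference was -1.46 in A431 and, leaving out the HSC-1 array instead, -1.23 in HSC-1.

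The everolimus difference was larger in HSC-1 for the calprotectin pair, while for S100A7 the lines cannot be set side by side exactly, since its A431 everolimus arrays were below the array median. As a description, the HSC-1 difference minus the A431 difference was -0.08 ± 0.19 (SE) for S100A7, with a 95% interval from -0.49 to 0.32. It was -1.08 ± 0.11 for S100A8 and -0.91 ± 0.11 for S100A9. The S100A7 value changed sign, to 0.05 with array weights, 0.09 without A431 everolimus replicate 3 and 0.06 without HSC-1 everolimus replicate 3. With everolimus S100A8 kept 25.5% of its DMSO signal in HSC-1 and 53.9% in A431, and S100A9 kept 32.7% in HSC-1 and 61.3% in A431. S100A7 kept 38.6% in HSC-1 and, at a signal below the array median, 40.9% in A431. Within HSC-1 the order of the differences was S100A8, S100A9, S100A7, and within A431 it was S100A7, S100A8, S100A9.

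The comparison of the lines was not the basis on which the genes were chosen, though it uses the same arrays. In the vehicle DMSO all 3 genes were higher in HSC-1 than in A431. S100A7 was 5.77-fold higher, at 7.71 in HSC-1 and 5.19 in A431 (log2 difference 2.53 ± 0.14 SE, limma adjusted p = 8.0e-12). S100A8 was 5.47-fold higher, at 8.70 in HSC-1 and 6.25 in A431 (2.45 ± 0.08, limma adjusted p = 6.1e-15). S100A9 was 1.89-fold higher, at 8.36 in HSC-1 and 7.44 in A431 (0.92 ± 0.08, limma adjusted p = 4.6e-09). Every HSC-1 array lay above every A431 array for each of them. The lines differ widely, with 59.4% of all tested genes passing in DMSO, 29.2% higher and 30.2% lower in HSC-1, and 32.3% with every HSC-1 array above every A431 array, so passing sets these genes little apart.

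With everolimus the line difference remained for S100A7 and S100A8 and was not detectable for S100A9. S100A7 was 5.46-fold higher, at 6.34 in HSC-1 and 3.89 in A431 (log2 difference 2.45 ± 0.14 SE, limma adjusted p = 1.3e-11), a size that depends on the background because the 3 A431 arrays lay below the array median. S100A8 was 2.59-fold higher, at 6.73 in HSC-1 and 5.35 in A431 (1.37 ± 0.08, limma adjusted p = 2.6e-11). For both genes every HSC-1 array was above every A431 array, as in 30.0% of all tested genes. By the same test 59.3% of all tested genes passed, 28.2% higher and 31.0% lower in HSC-1. S100A9 averaged 6.75 in HSC-1 and 6.74 in A431, a log2 difference of 0.01 ± 0.08 (SE) with a 95% interval from -0.15 to 0.18 (limma adjusted p = 0.886), and its arrays overlapped between the lines.

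**Figure D2:**
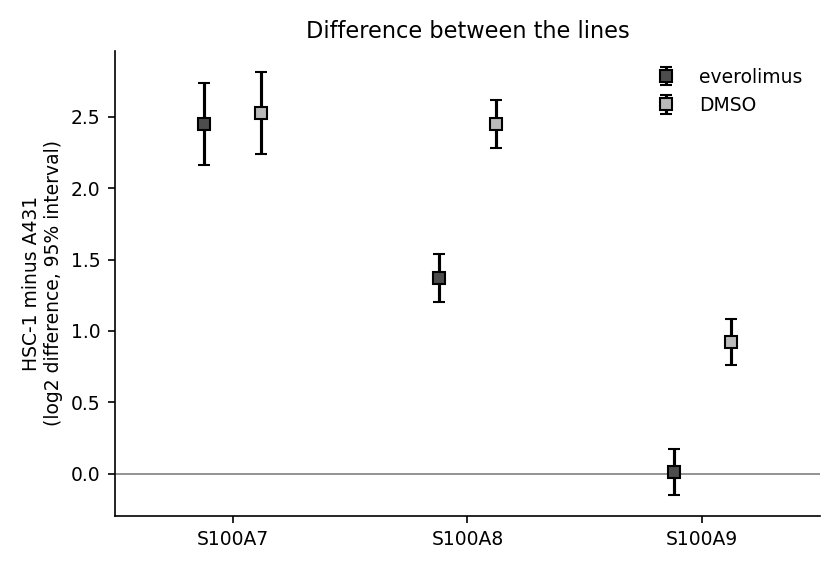
Log2 difference of HSC-1 minus A431 for S100A7, S100A8 and S100A9 with everolimus (dark squares) and with DMSO (light squares); bars are 95% intervals from the limma fit. The S100A9 difference is 0.92 in DMSO and 0.01 with everolimus, while the S100A7 difference is 2.53 in DMSO and 2.45 with everolimus.

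The order of the 4 groups was therefore not the same for the 3 genes. S100A7 and S100A8 were highest in HSC-1 with DMSO, then HSC-1 with everolimus, A431 with DMSO and A431 with everolimus, and no adjacent groups in that order overlapped. For S100A8 the step between HSC-1 with everolimus and A431 with DMSO was the narrowest, with a lowest array at 6.62 in HSC-1 with everolimus and a highest at 6.30 in A431 with DMSO. S100A9 was highest in HSC-1 with DMSO, then A431 with DMSO, and the everolimus groups of both lines shared the lowest place with overlapping arrays.

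The other S100 genes encode calcium-binding proteins of the same fold and were not picked for their everolimus differences, so a gap between them and the 3 alarmins is set by the choice. Of 18 listed, 17 had a named probe set and 12 were tested. In HSC-1, 4 of the 12 fell and the other 8 missed the threshold of an adjusted p of 0.05, and their median log2 difference was -0.12 against -0.02 over all tested genes. There 18.6% of all tested genes passed, 11.3% falling and 7.34% rising. In A431, 2 of the 12 fell and the other 10 missed the threshold, and their median was -0.07 against -0.0038 over all tested genes. There 6.73% of all tested genes passed, 4.33% falling and 2.39% rising.

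S100A16, a widely expressed member, fell in both lines. It measured 7.47, 7.37 and 7.52 with everolimus in HSC-1, against 7.87, 7.75 and 7.77 with DMSO, a log2 difference of -0.34 ± 0.06 (SE, limma adjusted p = 0.00045). In A431 it measured 7.08, 7.12 and 7.13 with everolimus, against 7.52, 7.39 and 7.53 with DMSO (-0.37 ± 0.06, limma adjusted p = 0.00067). Its groups did not overlap in either line. S100A14, an epithelial member, fell by 0.13 ± 0.04 in HSC-1 (limma adjusted p = 0.042) and by 0.21 ± 0.04 in A431 (limma adjusted p = 0.0046). S100A3, known from hair cuticle, fell by 0.37 ± 0.11 in HSC-1 (limma adjusted p = 0.026), and S100A11, which cornified keratinocytes cross-link, fell by 0.13 ± 0.04 there (limma adjusted p = 0.030).

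The smaller HSC-1 calls lie near the threshold. S100A14 lost its HSC-1 call under 11 of 21 alternatives, with a replicate block (limma adjusted p = 0.104), without the filter (0.0524), without the intensity trend (0.163), on the 6 HSC-1 arrays alone (0.0796) and without HSC-1 DMSO replicates 2 (0.186) and 1 (0.142), HSC-1 everolimus replicates 1 (0.129) and 2 (0.163), A431 DMSO replicates 2 (0.0513) and 3 (0.0511) and A431 everolimus replicate 1 (0.0533). S100A3 lost it without HSC-1 DMSO replicates 2 (0.0765) and 3 (0.113) and HSC-1 everolimus replicates 2 (0.104) and 3 (0.0610). S100A11 lost it with a replicate block (0.0734), without the intensity trend (0.119), and without HSC-1 DMSO replicates 2 (0.136) and 3 (0.0911) and HSC-1 everolimus replicates 1 (0.0809) and 2 (0.0802). The number of falls among the 12 genes was 1 without HSC-1 DMSO replicate 2 or without HSC-1 everolimus replicate 2, and 2 without HSC-1 DMSO replicate 3, without HSC-1 everolimus replicate 1, with a replicate block or without the intensity trend. In A431 it was 1 without the intensity trend, where S100A14 had an adjusted p of 0.0668.

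The remaining tested S100 genes had these everolimus differences, none past the threshold. S100A1 had 0.17 ± 0.12 in HSC-1 and -0.22 ± 0.12 in A431, S100A2 had -0.12 ± 0.07 in HSC-1 and 0.04 ± 0.07 in A431, and S100A4 had -0.08 ± 0.15 in HSC-1 and -0.31 ± 0.15 in A431. The widely expressed S100A6 had 0.04 ± 0.10 in HSC-1 and -0.23 ± 0.10 in A431, and S100A10, the annexin A2 partner, had 0.06 ± 0.06 in HSC-1 and -0.06 ± 0.06 in A431. S100A13 had -0.18 ± 0.10 in HSC-1 and 0.02 ± 0.10 in A431, S100P -0.11 ± 0.17 in HSC-1 and 0.05 ± 0.17 in A431, and S100Z 0.12 ± 0.11 in HSC-1 and 0.29 ± 0.11 in A431. S100A3 and S100A11 had 0.02 ± 0.11 and -0.08 ± 0.04 in A431. In none of the 12 genes did the everolimus difference itself pass a test of HSC-1 against A431 with limma, where 2 had an unadjusted p under 0.05. Of all tested genes 10.5% passed that test, 4.84% with the higher and 5.69% with the lower value in HSC-1.

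**Figure D3:**
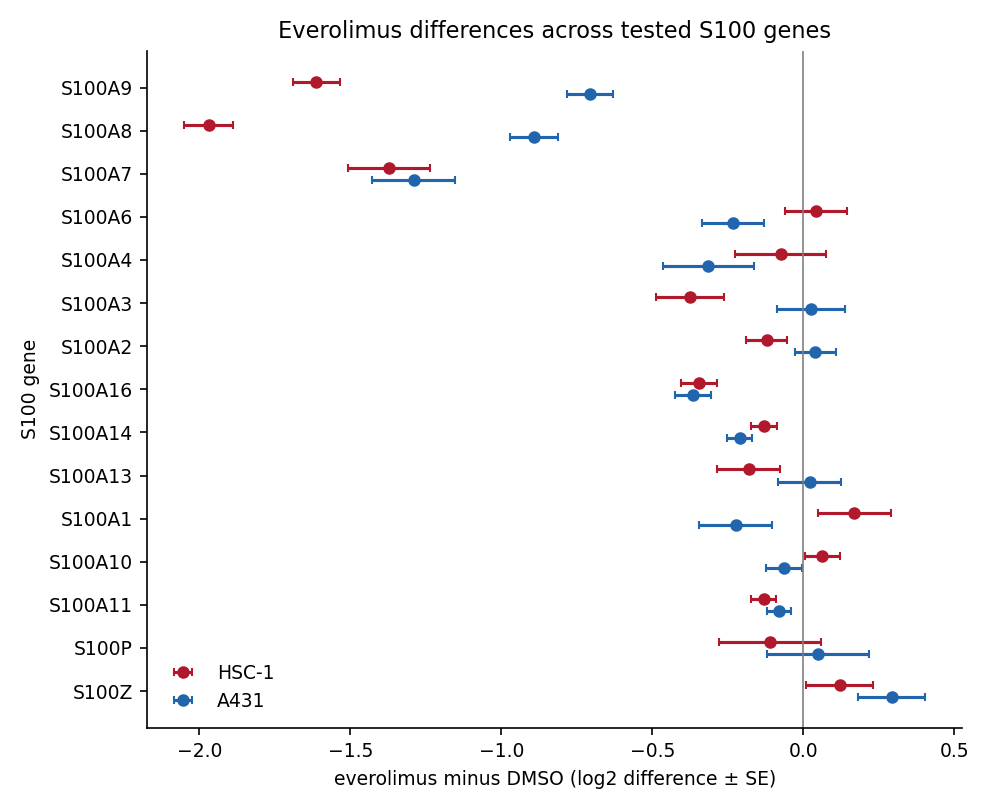
Everolimus minus DMSO log2 difference with its SE for the 15 tested S100 genes, HSC-1 in red and A431 in blue; the first 11 from the top follow their order along chromosome 1, from S100A9 to S100A1. S100A9, S100A8 and S100A7 lie at -0.71 or below in both lines, and the other 12 genes lie between -0.37 and 0.29.

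S100A12, the third calgranulin gene and the neighbour between S100A9 and S100A8, lay below the array median on all 12 arrays and was not tested. It measured 2.99, 2.94 and 2.89 with everolimus in HSC-1, against 3.53, 3.32 and 3.93 with DMSO, so its HSC-1 groups did not overlap at this low signal. In A431 it measured 2.92, 3.01 and 2.85 with everolimus, against 3.14, 3.17 and 2.84 with DMSO, and these groups overlapped. S100A5, S100B and S100G were also below the array median on all 12 arrays and not tested.

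In DMSO, 5 of the 12 other S100 genes were higher in HSC-1 than in A431, 2 were lower and 5 missed the threshold, and the median was 0.23 on the log2 scale against 0.0048 over all tested genes. With 29.2% of all tested genes higher and 30.2% lower in HSC-1, this is near the share of all genes that passed. S100A3 had 0.56 ± 0.11, S100A11 0.32 ± 0.04, S100A16 0.32 ± 0.06, S100A2 0.31 ± 0.07 and S100A6 0.28 ± 0.10. S100A6 lost its call without the intensity trend (limma adjusted p = 0.0572), without A431 DMSO replicate 3 (0.0840) and without HSC-1 DMSO replicate 1 (0.148). S100A14 was lower in HSC-1 by 0.46 ± 0.04 and S100P, known from placenta and carcinomas, by 1.34 ± 0.17. The values of S100A7 and S100A8 were 2.53 and 2.45.

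Among the other genes of the epidermal differentiation complex, the cornified envelope precursors SPRR1A and SPRR1B fell in both lines. Of 46 listed, 43 had a named probe set and 19 were tested, of which 2 fell in HSC-1 (median 0.02), where 11.3% of all tested genes fell, and 4 fell in A431 (median -0.15), where 4.33% did. The HSC-1 count is no more than that share of 19 genes. SPRR1A measured 7.24, 6.93 and 7.14 with everolimus in HSC-1, against 8.34, 8.28 and 8.23 with DMSO (log2 difference -1.18 ± 0.11 SE, limma adjusted p = 5.7e-07). In A431 it measured 4.81, 4.42 and 4.89 with everolimus, against 6.07, 6.22 and 5.93 with DMSO (-1.37 ± 0.11, limma adjusted p = 4.3e-07). The arrays of the groups did not overlap in either line. SPRR1B fell by 0.82 ± 0.17 in HSC-1 and by 1.30 ± 0.17 in A431, where it was below the array median on all 6 arrays. It passed the filter only through HSC-1, so its A431 fall, counted among the 4, rests on low signal and depends on the background. The peptidoglycan recognition proteins PGLYRP3 and PGLYRP4 fell by 0.46 ± 0.12 and 0.35 ± 0.08 in A431. PGLYRP3 lost its call without A431 DMSO replicates 2 (limma adjusted p = 0.0692) and 3 (0.126) and A431 everolimus replicate 1 (0.130), and PGLYRP4 without A431 DMSO replicate 1 (0.0516).

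The likeness of other genes to each of the 3 was measured as the root mean square distance of the log2 values over the 12 arrays, after each gene was centred on its own mean. The points share lines, treatments and arrays, so a short distance describes these libraries and carries no p. Nearest to S100A7 among 10612 genes were SPRR1A at 0.23, SPRR1B at 0.37, S100A8 at 0.42, ELMO1, a regulator of the GTPase Rac, at 0.45 and the secreted glycoprotein STC1 at 0.53, against a median distance of 1.43. Nearest to S100A8 were STC1 at 0.34, SPRR1A at 0.38, S100A7 at 0.42, the adhesion receptor ICAM1 at 0.47 and GLIPR1 at 0.50, against a median of 1.23. S100A9 had the adhesion protein MPZL2 at 0.38, ANKRD22 at 0.38, the receptor SIRPB1 at 0.39, SLFN11 at 0.41 and the adhesion molecule CLMP at 0.41, against a median of 0.70. S100A8 and S100A9, although partners in one protein complex, were 0.75 apart, and S100A9 ranked 74th among the genes nearest to S100A8, while S100A8 ranked 7257th among those nearest to S100A9. Distances grow with the range of a gene, and S100A9 varied least about its mean, with a root mean square of 0.67 against 1.23 for S100A8 and 1.42 for S100A7. A gene with no change over the arrays would lie 0.67 from S100A9, nearer than S100A8 at 0.75. The rank of S100A8 among the genes nearest to S100A9 therefore does not show an unlike pattern.

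The nearest genes were picked on these same arrays, so likeness in their differences follows from the choice. SPRR1A and S100A7 had like differences within each line and between the lines in DMSO. The everolimus difference was -1.18 for SPRR1A and -1.37 for S100A7 in HSC-1, and -1.37 for SPRR1A and -1.29 for S100A7 in A431. The DMSO difference of HSC-1 minus A431 was 2.21 for SPRR1A and 2.53 for S100A7. The HSC-1 everolimus difference minus that of A431 was 0.19 for SPRR1A and -0.08 for S100A7. STC1 shared the line difference of S100A8 (2.64 for STC1 and 2.45 for S100A8) and the larger HSC-1 difference (-1.49 for STC1 and -1.97 for S100A8), but in A431 it had -0.20 against -0.89 for S100A8. ICAM1 and GLIPR1 had -0.97 and -0.88 in HSC-1 and -0.06 and -0.02 in A431.

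**Figure D4:**
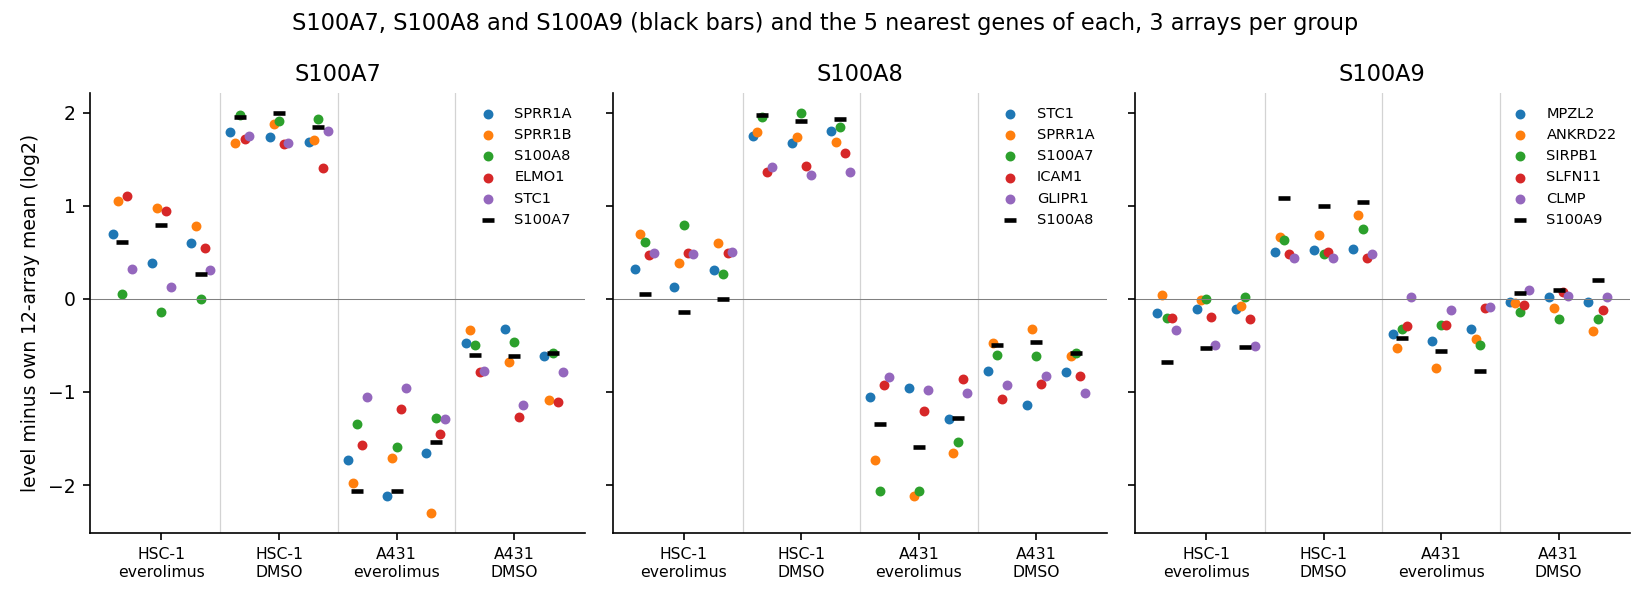
Log2 level minus the gene's own mean over 12 arrays, for S100A7, S100A8 and S100A9 (black bars) and the 5 nearest genes of each (coloured points), with the 3 arrays of each group side by side. SPRR1A follows S100A7 in all 4 groups, while the genes nearest to S100A9 span a narrower range than S100A9 itself.

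Of 32 listed cytokines, receptors and transcription factors upstream of the alarmins, 16 had a named probe set and all 16 were tested. The others had no named probe set, and whether an unnamed probe set measures any of them was not tested. In HSC-1, 6 fell and 10 missed the threshold, where 11.3% of all tested genes fell, and the median was -0.15 against -0.02 over all tested genes. These were the interleukin-1 receptor antagonist IL1RN (-0.98 ± 0.08), the AP-1 subunit FOSL1 (-0.97 ± 0.08), the cytokine TNF (-0.48 ± 0.12), the interleukin-20 and interleukin-24 receptor chain IL20RB (-0.38 ± 0.07), the NF-kappaB subunit RELA (-0.26 ± 0.05) and STAT3 (-0.19 ± 0.04), which transmits interleukin-6 and interleukin-22 signals. The signal of IL1RN was under the array median in all 3 everolimus-treated HSC-1 samples, and TNF lost its call without HSC-1 DMSO replicate 1 (limma adjusted p = 0.0689).

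In A431, 5 of the same 16 genes fell and 11 missed the threshold, where 4.33% of all tested genes fell, and the median was -0.14 against -0.0038 over all tested genes. These were the interleukin-6 receptor IL6R (-0.85 ± 0.10), IL1RN (-0.43 ± 0.08), the interleukin-17 receptor chain IL17RC (-0.35 ± 0.09), STAT3 (-0.22 ± 0.04) and the oncostatin M receptor OSMR (-0.18 ± 0.05). IL17RC lost its call without A431 DMSO replicates 2 (limma adjusted p = 0.0827) and 3 (0.0501) and A431 everolimus replicate 3 (0.0719). OSMR lost it without A431 everolimus replicates 1 (0.0520) and 2 (0.0962) or A431 DMSO replicate 2 (0.0746), with a replicate block (0.0699), without the intensity trend (0.0902) and on the 6 arrays of A431 alone (0.0681). Without A431 DMSO replicate 2 the number of falls was 3.

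Of 10 listed receptors and partners of the 3 proteins, 9 had a named probe set and 8 were tested. In HSC-1, 2 fell, TLR4, the Toll-like receptor for calprotectin (-0.52 ± 0.15), and BSG, a surface receptor for S100A9 (-0.12 ± 0.04), and 6 did not pass (median -0.08), where 11.3% of all tested genes fell. TLR4 lost its call without HSC-1 DMSO replicate 2 (limma adjusted p = 0.124) and HSC-1 everolimus replicates 1 (0.0620) and 3 (0.0829). BSG lost it without the intensity trend (0.147), without HSC-1 DMSO replicates 1 (0.0634) and 2 (0.115) and HSC-1 everolimus replicates 2 (0.0736) and 3 (0.0510). Neither of them passed with limma without HSC-1 DMSO replicate 2 or without HSC-1 everolimus replicate 3. In A431, 0 of the 8 passed with limma and 2 had an unadjusted p under 0.05, where 4.33% of all tested genes fell, and the median was 0.03. In DMSO, TLR4 was higher in HSC-1 than in A431 by 2.10 ± 0.15 and the adhesion receptor MCAM by 1.37 ± 0.17, while EMB (-0.73 ± 0.13), the S100A7 partner FABP5 (-0.50 ± 0.17) and NPTN (-0.44 ± 0.04) were lower. FABP5 lost its call without A431 DMSO replicates 2 (0.0598) and 3 (0.0743) and HSC-1 DMSO replicate 2 (0.128), and in A431 the signal was under the array median on 6 of 6 arrays for MCAM and on 5 of 6 for TLR4. Both passed the filter through HSC-1, so the sizes of their differences depend on the background.

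Of 32 antimicrobial and psoriasis-associated genes of keratinocytes, 11 had a named probe set and 6 were tested. The protease inhibitor SLPI fell in both lines, measuring 9.19, 9.08 and 9.20 with everolimus in HSC-1, against 9.78, 9.78 and 9.74 with DMSO (-0.61 ± 0.04, limma adjusted p = 1.8e-08). In A431 SLPI measured 9.23, 9.16 and 9.16 with everolimus, against 9.76, 9.70 and 9.64 with DMSO (-0.52 ± 0.04, limma adjusted p = 5.9e-07). Its groups did not overlap in either line. The iron-scavenging lipocalin LCN2 fell by 0.76 ± 0.08 in HSC-1, and the heparan sulphate-cleaving HPSE by 0.39 ± 0.11 in A431. HPSE lost its call with a replicate block (limma adjusted p = 0.0730) and without A431 DMSO replicates 1 (0.177) and 2 (0.0967) or A431 everolimus replicates 1 (0.106) and 2 (0.0986). The other 4 tested genes did not pass in HSC-1 (list median -0.22), nor did the other 4 in A431 (median -0.20). Of all tested genes 11.3% fell in HSC-1 and 4.33% in A431.

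In DMSO, where 29.2% of all tested genes were higher and 30.2% lower in HSC-1, the 19 genes of the differentiation complex had 4 higher and 2 lower, the 16 upstream genes 6 higher and 5 lower, and the 6 antimicrobial genes 2 lower. SPRR1B and SPRR1A were higher in HSC-1 by 2.45 ± 0.17 and 2.21 ± 0.11, and SPRR1B passed the filter only through HSC-1, with all 6 A431 values under the median of their array, so the size of its difference depends on the background. Also higher in HSC-1 were SPRR3 by 0.69 ± 0.13 and SPRR4 by 0.38 ± 0.11, while involucrin, IVL (-0.89 ± 0.12), and LCE6A (-0.40 ± 0.14) were lower, with LCE6A below the array median on all 6 HSC-1 arrays. LCE6A lost its call without A431 DMSO replicate 3 (limma adjusted p = 0.113) and HSC-1 DMSO replicate 1 (0.0958). Of the upstream genes OSMR (1.93 ± 0.05), TNF (1.03 ± 0.12) and FOSL1 (0.75 ± 0.08) were higher in HSC-1, and IL20RB (-3.66 ± 0.07), IL1RN (-3.24 ± 0.08) and GRHL3, an epidermal barrier factor (-2.29 ± 0.13), were lower. LCN2 (-1.07 ± 0.08) and HPSE (-0.78 ± 0.11) were lower in HSC-1.

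S100A8 and S100A9 are also major neutrophil and monocyte proteins, so markers of those cells were read beside them. Of 15 such markers 11 had a named probe set. CSF3R, MPO, LYZ, FPR1, CXCR2 and CD163 were below the array median on all 12 arrays, while CD68, CSF1R and FCN1 were above it on all 12. The summed log2 level of the 11 markers ran from 47.3 to 48.6 with everolimus and from 48.5 to 49.0 with DMSO in HSC-1, and from 50.4 to 51.5 with everolimus and from 51.0 to 52.1 with DMSO in A431. These ranges overlapped within each line. The sums were lower in HSC-1, where CD68 averaged 7.99 in DMSO against 10.71 in A431. CD14 was above the array median on 5 of 12 arrays, all of A431, and TYROBP on 4 of 12. The 7 keratinocyte markers summed to 71.9 to 72.0 with everolimus and 71.7 to 72.0 with DMSO in HSC-1, and to 68.2 to 68.5 with everolimus and 69.4 to 69.6 with DMSO in A431. The A431 sums did not overlap, and KRT14, DSG3, DSP and SFN fell there, where 4.33% of all tested genes fell. In HSC-1 KRT14 and SFN fell and DSP and PKP1 rose, where 11.3% of all tested genes fell and 7.34% rose. In 3 of the 7 the comparison of everolimus differences passed with limma, with the higher value in HSC-1, against 4.84% of all tested genes. CD68 fell by 0.17 in HSC-1 and by 0.20 in A431. Their part in the S100 differences was not tested. Of the 3 fibroblast markers with a probe set, summed levels were 9.40 to 9.59 with everolimus and 9.56 to 10.1 with DMSO in HSC-1, and 11.8 to 12.4 with everolimus and 11.73 to 12.02 with DMSO in A431. For 5 melanocyte markers the sums were 21.57 to 21.99 with everolimus and 22.18 to 22.36 with DMSO in HSC-1, and 20.88 to 21.97 with everolimus and 21.76 to 22.33 with DMSO in A431. The melanocyte sums did not overlap in HSC-1. Only 2 fibroblast markers (LUM and THY1) and 2 melanocyte markers (MITF and SOX10) were tested, and none passed for everolimus in either line. DCN, MLANA and TYR were below the array median on all 12 arrays, while THY1, MITF and SOX10 were above it on all 12. LUM was above it on all 6 A431 arrays and below it on all 6 HSC-1 arrays, and PMEL was above it on 1 of 12.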

How the data were processed

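Total RNA of HSC-1 and A431 cells, extracted with TRI reagent per the labels' protocols, was amplified, biotin-labelled and hybridised to Affymetrix whole-transcript arrays. The submitters' processing notes name RMA and Affymetrix Expression Console as what the authors used to make the deposited log2 values, of which each array has 53617. No software version or genome build is stated in the sources used here. RMA equalises arrays, so a change in total RNA would not be seen. The number of arrays limits the precision.

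GEO's annotation named 16098 probe sets with 1 gene symbol each, none with several, and left 37519 unnamed. Each of 14884 genes kept its probe set of highest mean, and the 10613 genes above the array median on at least 3 of 12 arrays were tested. A linear model with a mean per group was fitted over all 12 arrays with limma 3.58.1 in R 4.3.3 (eBayes with an intensity trend). Benjamini-Hochberg adjustment ran over all tested genes with a threshold of 0.05. The fit was tested on simulated data.

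S100A7, S100A8 and S100A9, the gene lists and the rules were chosen with earlier results of these data known. Named genes were the 3 genes, the other S100 genes, up to 6 passing genes with the largest absolute difference of each further list, and the 5 nearest genes of each of the 3. Alternatives were a replicate block, no filter or a filter at the 60th percentile, no intensity trend, array weights, quantile normalization again, median centring, the 6 arrays of a comparison alone, averaged probe sets, and leaving out each array. Those for list counts, their genes and the comparison of everolimus differences between the lines were added after the data were seen.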

Additional observations from a re-analysis of the deposited data

Results flagged for a closer look

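Of 61 tested genes in the lists related to the S100 alarmins, 6 (9.84%) had everolimus differences that themselves differed between the lines in the limma fit, close to the 10.5% of all tested genes. Each value is the HSC-1 difference minus the A431 difference on the log2 scale. The AP-1 subunit FOSL1 had -1.15 ± 0.11 (SE, limma adjusted p = 2.0e-06), from -0.97 in HSC-1 and 0.17 in A431. The calprotectin receptor TLR4 had -0.85 ± 0.21 (limma adjusted p = 0.014), from -0.52 in HSC-1 and 0.32 in A431, where 5 of 6 arrays were under the array median, so the A431 value and the comparison depend on the background. IL1RN had -0.55 ± 0.12 (limma adjusted p = 0.0048), from -0.98 in HSC-1 and -0.43 in A431. Its 3 HSC-1 arrays with everolimus were under the array median, so the HSC-1 value and the comparison depend on the background. LCN2 had -0.55 ± 0.11 (limma adjusted p = 0.0023), from -0.76 in HSC-1 and -0.21 in A431. IL6R went the other way, with 0.65 ± 0.14 (limma adjusted p = 0.0041), from -0.19 in HSC-1 and -0.85 in A431. RELA had -0.26 ± 0.07 (limma adjusted p = 0.016), from -0.26 in HSC-1 and 0.00023 in A431, and it lost the call with a replicate block (0.0532) and without the intensity trend (0.0546). The other 5 kept theirs under all 20 alternatives.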

How the results depend on the processing

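The HSC-1 minus A431 differences of S100A7 and S100A8, in DMSO and with everolimus, and of S100A9 in DMSO kept their direction and their side of the threshold under all 21 alternatives. The S100A9 difference with everolimus, 0.01, turned to -0.00081 with array weights and to -0.0013 with median centring, and ran from -0.081 to 0.097 over leaving out each array. The S100A7 comparison of everolimus differences, -0.08, turned to 0.047 with array weights and ran from -0.20 to 0.092 over leaving out each array. Over all alternatives the everolimus difference in HSC-1 ran from -1.49 to -1.23 for S100A7, from -2.01 to -1.91 for S100A8 and from -1.64 to -1.56 for S100A9. In A431 it ran from -1.46 to -1.20, from -0.96 to -0.80 and from -0.79 to -0.61 for the same genes. Of all tested genes, 714 passed for everolimus in A431, against 438 without the intensity trend, and 452 to 839 when leaving out each array, with 452 without A431 DMSO replicate 1 and 453 without A431 DMSO replicate 2. The cause was not tested.

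Replicate numbers were not taken to pair the arrays, since deviations of arrays with the same number correlated at -0.15 to 0.07. With a replicate block 1611 genes passed for everolimus in HSC-1, 477 in A431 and 807 for the comparison of the everolimus differences. Without it the numbers were 1977, 714 and 1118. Between the lines, arrays lay closest to their own number in 4 of 6 cases in DMSO and 1 of 6 with everolimus. Between treatments this held in 1 of 6 cases in A431 and 0 of 6 in HSC-1. Signal near the array median limits what can be read of S100A7 in A431 with everolimus, of S100A7A and of S100A12.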

Other observations

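The 3 alarmin genes varied more between arrays with everolimus than with DMSO in both lines. The SD of S100A7 was 0.27 with everolimus and 0.08 with DMSO in HSC-1, and 0.30 with everolimus and 0.02 with DMSO in A431. Its A431 arrays with everolimus all lay below the array median, so the SD of that group depends on the background. S100A8 and S100A9 had the larger SD with everolimus in both lines as well. Over all tested genes 31.1% had the larger SD with everolimus in both lines, and the median SD was 0.099 with everolimus and 0.083 with DMSO in HSC-1, and 0.091 with everolimus and 0.086 with DMSO in A431. This was seen in the data first and was not tested.

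Without the filter on low values, S100A12 had an everolimus difference of -0.65 ± 0.14 (SE) in HSC-1 (limma adjusted p = 0.0045), and S100A7A had -0.38 ± 0.17 in HSC-1 and -0.25 ± 0.17 in A431. Both lay below the array median on every array.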
